A study of Mus musculus with 24 samples.

Results

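A list of 44 cell cycle and DNA replication genes was followed through 24 RNA sequencing libraries of cultured mouse microglia. The genes were taken by name and no measured value enters that rule, but they were chosen with earlier results of these data known. All 44 of 44 were present in the count table of 18919 genes, and all 44 passed the filter on low counts that left 13294 genes for testing. The cells were primary microglial cells, labelled as age p0, from C57BL/6 wild-type mice (WT) or from B6.129S4-Cd14tm1Frm/J mice (KO). The KO line carries a targeted allele of Cd14 throughout the animal, and CD14 is the surface protein that hands lipopolysaccharide (LPS) to the receptor TLR4. Cells of each genotype were left untreated, given Re-LPS at 0.1 ng/ml or at 10 ng/ml, or given mouse fibronectin (FN) at 100 µg/ml, for 3 h. Each of the 8 groups held 3 libraries, numbered 1 to 3, each from a separate preparation of cells according to the series.

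Cells that prepare to divide switch on genes in waves. Transcription factors of the E2F family raise the cyclins, origin licensing factors, helicase subunits and nucleotide enzymes needed for DNA synthesis, and a later set directed by the MuvB, B-MYB and FOXM1 complexes supplies the mitotic kinases, kinesins and kinetochore proteins. In resting and differentiating cells the DREAM complex, which binds E2F and CHR promoter elements, keeps both sets low. Microglia divide in the newborn brain and in mixed cultures, where growth factors from astrocytes drive them, and TLR4 ligands are known to slow macrophage division while inflammatory genes rise. In bulk RNA, fewer cycling cells and less of these transcripts in each cycling cell cannot be told apart.

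Levels are in CPM, the read count relative to a library size that was adjusted with TMM factors, and total counts ran from 14939019 to 22143774. Within each genotype the same-numbered libraries deviated from their group means together, so each stimulus was compared with untreated cells within a numbered preparation (a replicate block). Genes with an adjusted p under 0.05 were called. Changes are log2 fold changes ± SE from edgeR, from 3 preparations per genotype. Cd14 itself read 2.14 to 6.37 CPM in the KO libraries and 338 to 5330 CPM in the WT libraries. The 10 microglial markers summed to 9598 to 10880 CPM in untreated WT cells, 8131 to 9460 after LPS at 10 ng/ml, and 8630 to 9085 after FN. The KO sums were 9225 to 9610 CPM untreated, 7520 to 8856 with LPS at 10 ng/ml and 9122 to 9872 with FN. The sums were thus lower than untreated, without overlap, in the 3 groups in which most cell cycle genes fell. P2ry12 and Tmem119, which mark microglia in the intact brain, had medians of only 12.6 and 14.3 CPM. Summed markers of other cells were 11.25 to 42.72 CPM for astrocytes (8 genes, with Gfap and Aqp4 at 0 in 3 and 9 libraries), 87.68 to 359.5 for the oligodendrocyte lineage (9 genes), 1.626 to 51.95 for neurons (8 genes) and at most 0.6254 for the 3 of 9 markers of other leukocytes that were listed. The 9 vascular and fibroblast markers summed to 1.442 to 9.144 CPM in untreated cells and to 11.9 to 35.35 CPM in those 3 groups (WT with LPS at 10 ng/ml, WT with FN, KO with LPS at 10 ng/ml). Of the latter, Pdgfrb and Acta2 had the highest levels, up to 29.3 and 16.8 CPM, and were at 0 in none of the libraries, while Cldn5 was at 0 in 23 libraries, Dcn in 15, Col1a2 in 11, Col3a1 in 9 and Col1a1 in 5. The part of these markers in the results below was not tested.

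The preparations differed in how much cell cycle RNA they held, and in KO cells the spread of the summed level between preparations exceeded its change under any stimulus. The 44 genes together read 2858, 2113 and 2516 CPM in untreated WT replicates 1 to 3 and 3424, 1811 and 787 CPM in untreated KO replicates 1 to 3. KO replicate 3 was the lowest KO library at all 4 treatments for 42 of 44 genes, the exceptions being Cdt1 and Pcna. Untreated KO replicate 2 exceeded replicate 3 by a median of 4.06 times over the 44 genes, with a range of 0.802 to 9.02. The gap was 6.14 times for the median gene of the mitotic kinase and checkpoint group and 5.28 times for spindle and kinetochore genes, but 1.94 times for licensing and helicase genes. Plk1, a kinase that drives entry into and passage through mitosis, had the largest gap and read 38.2, 18.5 and 2.05 CPM in the 3 untreated KO libraries. Pcna, the sliding clamp that holds DNA polymerases at the fork, was instead set apart in replicate 1 of both genotypes. It read 313, 86.5 and 103 CPM in untreated WT and 320.4, 93.8 and 117 CPM in untreated KO libraries, and replicate 1 was more than 2 times either other replicate in all 8 groups. Pcna, Tyms, Ccnb1 and Ccnb2 have named pseudogene copies in the mouse annotation, so their reads are uncertain.

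**Figure D1:**
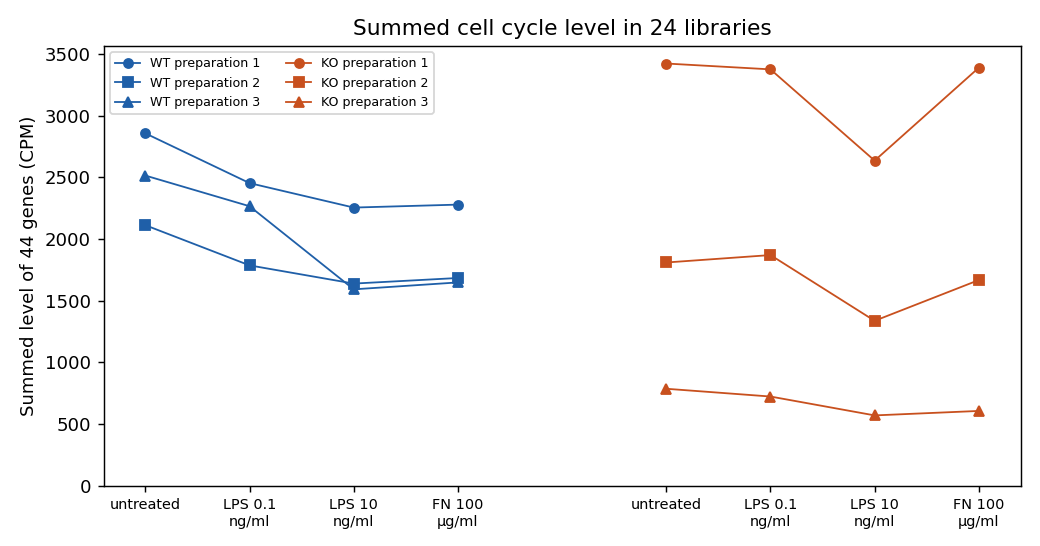
Summed level of the 44 genes (y axis, CPM) in each of the 24 libraries, by treatment (x axis); each line joins the 4 libraries of 1 numbered preparation, blue for WT and orange for KO. KO preparation 3 lies between 570.8 and 786.7 CPM and KO preparation 1 between 2637 and 3424 CPM, while the WT preparations span 1593 to 2858 CPM.

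The promoter windows of 6 genes are shown as the genes on which the results turn. They run from 250 bases before to 50 bases after the first transcription start that RefSeq lists for the gene (GRCm38.p6, the same assembly as mm10). Cdc6 and Mcm3 are licensing genes with large falls, Kif23 and Cenpf are mitotic genes with large falls, and Pcna and Mki67 are genes that went the other way in 1 genotype. Capitals mark 3 motifs, searched on both strands. They are the E2F letters TTTGGCGC, TTTCCCGC, TTTGCCGC or TTTCGCGC, the CHR letters TTTGAA and the CCAAT box CCAAT.
Cdc6, chr11:98907901-98908200, plus strand: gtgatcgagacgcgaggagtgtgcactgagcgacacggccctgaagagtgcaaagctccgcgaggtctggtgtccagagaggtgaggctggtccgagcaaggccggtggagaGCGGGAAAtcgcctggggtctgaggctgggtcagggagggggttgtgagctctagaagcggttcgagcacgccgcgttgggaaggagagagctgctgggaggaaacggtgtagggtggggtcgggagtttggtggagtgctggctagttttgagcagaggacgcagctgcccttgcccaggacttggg
Mcm3, chr1:20820263-20820562, minus strand: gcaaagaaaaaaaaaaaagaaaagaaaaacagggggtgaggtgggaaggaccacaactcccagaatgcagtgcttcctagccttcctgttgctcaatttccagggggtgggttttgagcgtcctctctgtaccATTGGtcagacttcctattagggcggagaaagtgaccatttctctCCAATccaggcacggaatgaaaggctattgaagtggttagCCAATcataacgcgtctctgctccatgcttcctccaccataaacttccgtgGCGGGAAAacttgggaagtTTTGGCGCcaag
Kif23, chr9:61946750-61947049, minus strand: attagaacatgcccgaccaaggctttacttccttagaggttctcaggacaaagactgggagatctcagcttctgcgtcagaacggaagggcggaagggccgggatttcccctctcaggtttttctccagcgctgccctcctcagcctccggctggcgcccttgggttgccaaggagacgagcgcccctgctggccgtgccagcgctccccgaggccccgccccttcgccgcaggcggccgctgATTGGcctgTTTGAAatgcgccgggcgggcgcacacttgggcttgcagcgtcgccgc
Cenpf, chr1:189688037-189688336, minus strand: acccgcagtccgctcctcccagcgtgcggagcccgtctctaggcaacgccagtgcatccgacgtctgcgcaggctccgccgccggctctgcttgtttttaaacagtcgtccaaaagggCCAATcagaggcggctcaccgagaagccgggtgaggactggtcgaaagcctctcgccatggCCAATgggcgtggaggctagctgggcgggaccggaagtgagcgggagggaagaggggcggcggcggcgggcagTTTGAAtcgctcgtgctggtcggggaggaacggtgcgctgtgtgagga
Pcna, chr2:132253131-132253430, minus strand: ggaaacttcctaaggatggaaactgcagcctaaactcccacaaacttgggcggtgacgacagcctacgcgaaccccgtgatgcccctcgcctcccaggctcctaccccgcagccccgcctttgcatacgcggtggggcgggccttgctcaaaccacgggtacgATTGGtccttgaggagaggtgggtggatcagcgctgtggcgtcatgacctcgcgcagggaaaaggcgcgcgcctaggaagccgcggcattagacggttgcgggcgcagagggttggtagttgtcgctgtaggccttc
Mki67, chr7:135716330-135716629, minus strand: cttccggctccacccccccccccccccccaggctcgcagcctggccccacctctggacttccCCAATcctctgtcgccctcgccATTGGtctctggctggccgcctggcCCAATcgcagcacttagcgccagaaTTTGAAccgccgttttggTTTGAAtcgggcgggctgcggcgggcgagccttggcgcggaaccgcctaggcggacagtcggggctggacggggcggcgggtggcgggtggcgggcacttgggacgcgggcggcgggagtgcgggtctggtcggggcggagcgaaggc

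Of the 44 genes, 36 had a window in the table (none for Ccna2, Ccne2, Mcm4, Gins1, Gins2, Aurkb, Kif20a and Tpx2). The E2F letters were in 7 of 36 windows (19.4%) and in 2.32% of the windows of 27025 genes, and 6 of the 7 belonged to the 8 licensing and helicase genes with a window. CHR letters were in 18 of 36 against 18.1% of all windows, including 5 of 7 for mitotic kinases and checkpoint genes and 6 of 8 for spindle and kinetochore genes. The CCAAT box was in 29 of 36 (80.6%) against 37.9%. Kif23 and Cenpf carry the CHR letters at the same place, just past the listed start, and Pcna has neither E2F nor CHR letters in this window. In 1 of the 36 windows matches to different motifs overlapped. In WT cells with 10 ng/ml LPS, E2F letters were in 5 of 27 windows of genes called lower and 2 of 7 of genes not called. CHR letters were in 15 of 27 and 3 of 7, and the 2 genes called higher had neither. The 6 windows shown were picked by the changes of their genes, so they cannot show whether motifs go with the falls. A match is a run of letters and not a shown binding site.

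The first question was how these genes responded to 10 ng/ml LPS in WT cells. Most cell cycle genes fell within 3 h, and the falls were largest for Cdc6, for the cytokinesis and kinetochore genes Kif23 and Cenpf and for cyclin E2. In the replicate-block test, 34 of 44 genes fell and 2 rose, while 36.1% of all tested genes were called lower and 34.1% higher. The median change of the 44 genes was -0.90 on the log2 scale, against -0.01 for all genes tested. All 34 genes called lower fell in 3 of 3 preparations, by 1.24 to 8.88 times in fitted level. For 30 of the 44, all 3 stimulated libraries lay below all 3 untreated libraries, as they did for 31.3% of all genes. Without the block, which sets the treatment against the spread between preparations, 6 genes were called lower (26.1% of all genes), with a median SE of 0.84 in place of 0.13. With total counts as the only scale, the median of all genes moved to -0.81 and that of the 44 to -1.69, and all genes split into 9285 lower and 1886 higher where TMM gave 4798 and 4528.

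Among the licensing and helicase genes, 8 of 11 fell. Cdc6, the ATPase that loads the MCM helicase onto origins, read 9.98, 7.57 and 6.22 CPM in untreated replicates 1 to 3 and 0.908, 0.823 and 0.918 CPM after 10 ng/ml LPS. The 2 groups did not overlap, and the change was -3.15 ± 0.24, adjusted p = 9.82e-10. Mcm3, a subunit of that helicase, read 103, 99.3 and 84.4 CPM before and 42.5, 44.3 and 28.9 CPM after, a change of -1.32 ± 0.09, adjusted p = 3.85e-10. Its 3 stimulated libraries were again all lower. Mcm2, Mcm4, Mcm5 and Mcm7, further helicase subunits, changed by -0.94, -0.86, -0.63 and -0.80. Cdc45, which joins the MCM ring and the GINS complex into the active helicase, changed by -1.07 ± 0.12 and Gins1 by -0.68 ± 0.14. Mcm6, Cdt1 and Gins2 were not called, at -0.12 ± 0.09, -0.20 ± 0.31 and -0.21 ± 0.10. Mcm6 read 177, 170.1 and 147 CPM before and 155, 151 and 147 CPM after. Gins2 shares 2758 bases of exon with the neighbouring gene Gse1, and the sources used here do not say whether strand was used in counting.

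The cyclins split. Ccne2, the cyclin E2 partner of CDK2 at the start of S phase, read 6.34, 7.10 and 6.86 CPM in untreated and 1.07, 1.95 and 1.28 CPM in stimulated WT cells. That is a change of -2.22 ± 0.23, adjusted p = 7.83e-08 with no overlap between groups. Its relative Ccne1 (cyclin E1) went up, from 16.2, 15.9 and 14.8 CPM to 20.9, 19.7 and 24.1 CPM, a change of 0.45 ± 0.12, adjusted p = 0.00169 that turned to -0.34 (adjusted p = 0.0225) when libraries were scaled by total counts alone. Ccna2, the cyclin A2 of S phase and G2, fell from 70.3, 54.9 and 75.2 CPM to 24.5, 21.9 and 22.7 CPM, a change of -1.52 ± 0.11, adjusted p = 2.91e-10. All 3 stimulated Ccna2 values were below the lowest untreated value. The mitotic cyclins Ccnb1 and Ccnb2 and their kinase Cdk1 changed by -0.78, -0.43 and -0.42. Ccne2 and Ccna2 share 609 and 510 exonic bases with neighbours on the opposite strand, Ints8 and Exosc9. In all, 13 of the 44 genes share exonic bases with another gene, 8 of them over 10% of their exonic length (Ccne2, Ccna2, Gins2, E2f8, Mcm7, Ube2c, Kif20a and Prc1).

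Of the transcription and chromatin genes, Uhrf1, which brings the DNA methyltransferase to newly made DNA, read 71.1, 40.1 and 31.1 CPM before and 25.2, 18.5 and 10.5 CPM after LPS. Its change was -1.38 ± 0.15, adjusted p = 1.09e-07, and the 2 sets of 3 values did not overlap. E2f1, an activator of the S phase genes, fell from 47.6, 40.5 and 32.3 CPM to 24.8, 26.8 and 17.5 CPM, a change of -0.80 ± 0.12, adjusted p = 5.44e-06. E2f8, a repressor of the same family, was not called at -0.48 ± 0.30. The 4 fork and nucleotide genes moved in different directions. Rrm2 and Rrm1, the small and large subunits of ribonucleotide reductase, both fell. Rrm2 read 76.3, 47.5 and 51.4 CPM before and 31.6, 23.7 and 18.6 CPM after (-1.24 ± 0.16, adjusted p = 2.93e-06), and Rrm1 127, 125 and 138 CPM before and 73.4, 70.3 and 76.4 CPM after (-0.82 ± 0.09, adjusted p = 2.25e-07). In both genes the groups were separate. Pcna rose in every preparation, from 313, 86.5 and 103 CPM to 571, 159 and 147 CPM, although its groups overlapped, with replicate 1 far above the other two in both. Its change was 0.75 ± 0.09, adjusted p = 2.24e-07, and it was -0.04 (adjusted p = 0.683) with total counts as the scale. Tyms, thymidylate synthase, was not called at 0.22 ± 0.11.

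Mitotic genes fell together. Among the mitotic kinases, the spindle checkpoint and the anaphase-promoting ubiquitin ligase, 7 of 8 fell with a group median of -1.09. Bub1b, the checkpoint kinase-like protein BubR1, read 56.2, 43.5 and 68.2 CPM in untreated and 13.1, 13.5 and 9.64 CPM in stimulated libraries, a change of -2.16 ± 0.23, adjusted p = 3.84e-07. Cdc20, the activator of the anaphase-promoting complex, fell from 17.1, 12.7 and 15.3 CPM to 5.04, 4.79 and 3.49 CPM, a change of -1.74 ± 0.17, adjusted p = 2.53e-08. Every stimulated library of both genes was below every untreated one. The kinases Plk1, Aurka, Aurkb and Bub1 changed by -1.08, -1.10, -1.70 and -1.06, and Birc5 (survivin, a partner of Aurkb) by -1.02. Ube2c, the ubiquitin-conjugating enzyme of the same ligase, was the exception at 0.00 ± 0.14.

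Of the 10 spindle and kinetochore genes 9 fell, with a median of -1.29. Kif23, a kinesin of the central spindle needed for cytokinesis, read 32.0, 30.1 and 44.2 CPM before and 5.04, 6.51 and 7.07 CPM after LPS, a change of -2.51 ± 0.16, adjusted p = 1.33e-10. Cenpf, a large kinetochore protein made in G2, read 35.5, 32.9 and 43.5 CPM before and 5.20, 10.4 and 5.51 CPM after, a change of -2.40 ± 0.23, adjusted p = 7.28e-08. Neither gene had any overlap between its groups. Kif20a, Kif11, Cenpa, Prc1 and Hmmr changed by -1.69, -1.49, -1.37, -1.21 and -0.97, and Tpx2 and Nusap1 by -0.59 and -0.31. Cenpe, the kinetochore kinesin, was not called at -0.13 ± 0.16. Of the 2 genes used as general markers of proliferation, Top2a (topoisomerase II alpha) fell from 197, 161 and 219 CPM to 132, 116 and 124 CPM, a change of -0.63 ± 0.11, adjusted p = 2.89e-05. Mki67, which encodes the Ki-67 antigen, read 347, 232 and 349.5 CPM before and 434, 333 and 339.8 CPM after and was not called at 0.26 ± 0.28, adjusted p = 0.427.

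**Figure D2:**
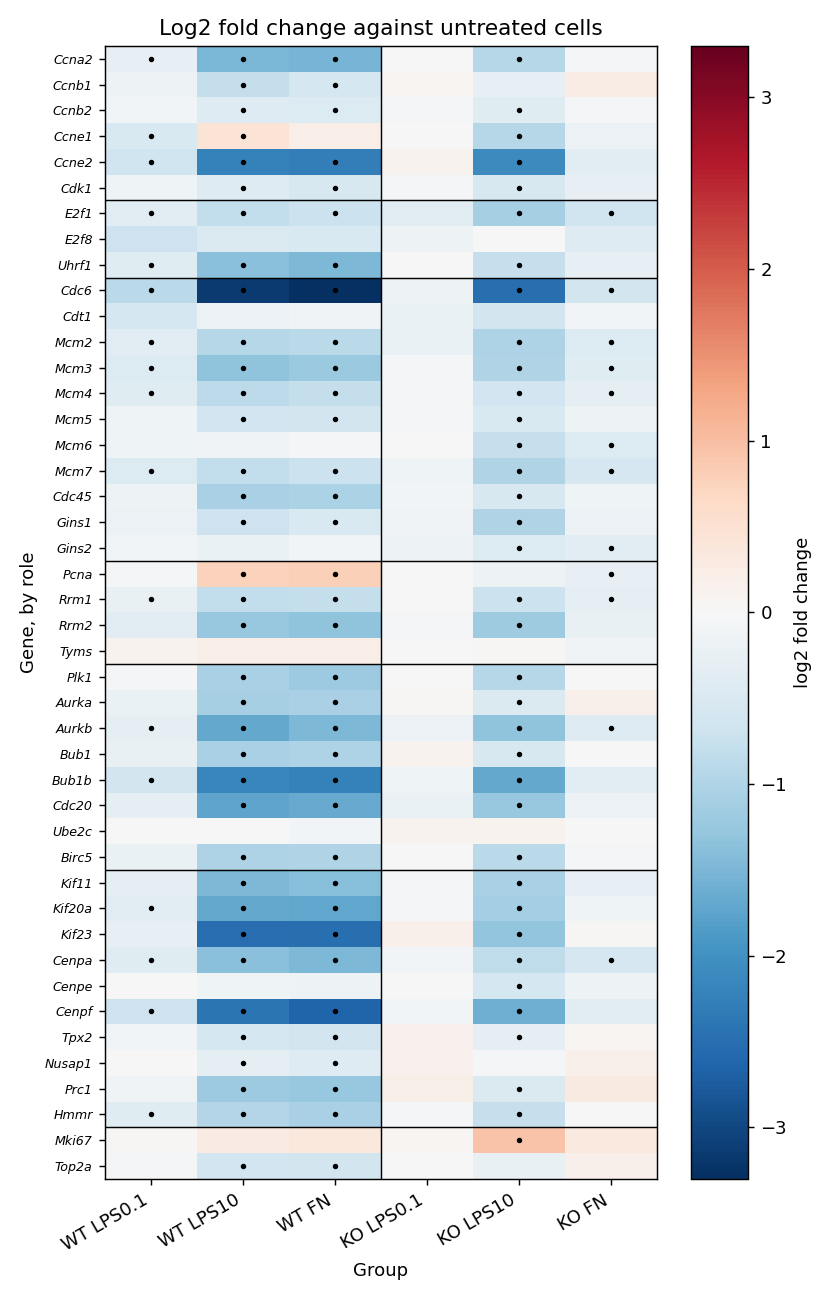
Log2 fold change of each of the 44 genes (rows, ordered by role, with lines between roles) against untreated cells of the same preparation, for the 6 stimulated groups (columns); a dot marks an adjusted p under 0.05. The columns for WT with LPS at 10 ng/ml and with FN hold 34 lower genes each, with Cdc6 at -3.15 and -3.29, while the column for KO with 0.1 ng/ml holds no dot.

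The lower dose of LPS asked whether the fall was graded. At 0.1 ng/ml in WT cells 17 of 44 genes fell and none rose (20.4% and 21.2% of all genes), with a median of -0.26. No gene rose at an unadjusted p under 0.05 either, and DESeq2 and limma each called 0 higher. Of the 17, 16 also fell at 10 ng/ml, and the other was Ccne1. Cdc6 read 5.36, 3.41 and 4.08 CPM, between its untreated and high-dose values in every replicate, a change of -0.88 ± 0.17, adjusted p = 0.000399. Cenpf, Ccne2, Bub1b and Mcm3 changed by -0.68, -0.65, -0.60 and -0.46. Kif23, second only to Cdc6 at 10 ng/ml, read 23.3, 24.7 and 41.3 CPM and was not called at -0.27 ± 0.13. Only 8 of the 44 genes had 3 stimulated libraries below all untreated ones (15.1% of all genes), and without the block 0 genes were called lower, 0 at an unadjusted p under 0.05 (5.66% of all genes called). The count was 6 to 9 when WT LPS 0.1 ng/ml replicate 1 or 2, or untreated replicate 1 or 3, was left out, and 22 at most.

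Compared directly, 10 ng/ml gave lower values than 0.1 ng/ml for 33 genes (29.1% of all genes) and higher values for 2 (27.9%), Ccne1 and Pcna, at 0.96 ± 0.12 and 0.81 ± 0.09. Ccne1 thus read 11.7, 8.93 and 12.6 CPM at 0.1 ng/ml, below the untreated 16.2, 15.9 and 14.8 CPM, and 20.9, 19.7 and 24.1 CPM at 10 ng/ml, above it. The drop between doses was -2.27 ± 0.26 for Cdc6 and -2.24 ± 0.16 for Kif23. Without the block 2 genes were called lower (17.4% of all genes).

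Fibronectin, an extracellular matrix protein that the series title counts among the TLR4 stimuli, was compared next. In WT cells FN at 100 µg/ml lowered 34 genes (37.0% of all genes) and raised 1, Pcna (35.0%), with a median of -0.84. The 34 were the 34 that fell with 10 ng/ml LPS; the 2 comparisons share their untreated libraries. Cdc6 read 0.488, 1.17 and 0.741 CPM, a change of -3.29 ± 0.24, adjusted p = 3.91e-10, and Kif23 read 3.69, 8.09 and 7.20 CPM, a change of -2.50 ± 0.16, adjusted p = 9.26e-11. Cenpf read 4.95, 8.09 and 5.12 CPM and Ccne2 1.46, 1.60 and 1.08 CPM, changes of -2.64 and -2.29. All 4 genes lay below every untreated WT library, as 31 of the 44 genes did (31.7% of all genes). Pcna read 564, 159 and 161 CPM, a rise of 0.79 ± 0.09, adjusted p = 1.19e-07 that was 0.00 (adjusted p = 0.977) with total counts as the scale. Without the block 5 genes were called lower (26.5% of all genes).

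Set against each other in WT cells, FN and 10 ng/ml LPS differed in 0 of 44 genes, and in 0% of all 13294 genes in either direction. None of the 44 had an unadjusted p under 0.05 in edgeR, 504 of all genes did, and DESeq2 and limma called 0 of the 44. The differences ran from -0.24 to 0.21 with a median SE of 0.14, and differences of the size of these errors could not be detected. A test that calls nothing does not show that the 2 stimuli act alike.

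**Figure D3:**
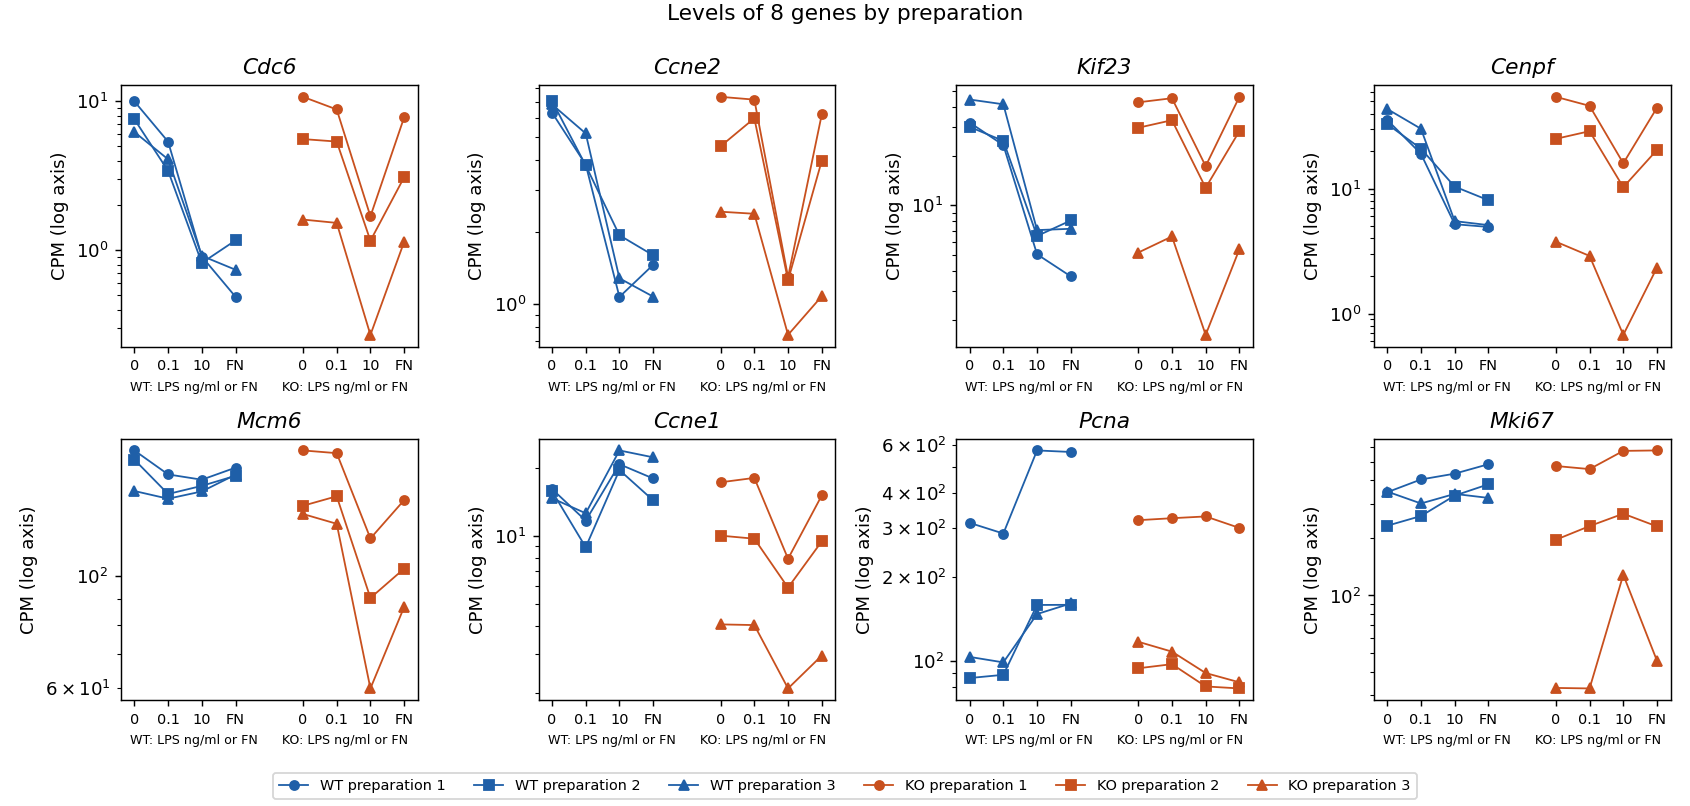
Levels of 8 genes (y axes, CPM, log scale) in each library by treatment (x axis: 0, 0.1 or 10 ng/ml LPS, or FN); each line is 1 preparation, blue WT and orange KO. Cdc6, Ccne2, Kif23 and Cenpf are lower than untreated with 10 ng/ml LPS in all 6 preparations and with FN in all 3 WT preparations, Pcna is higher with both in all 3 WT preparations, and Mcm6 is lower with both in all 3 KO preparations.

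In KO cells given 0.1 ng/ml LPS none of the 44 genes was called (0.797% of all genes were called lower and 3.08% higher). E2f1 was the only one with an unadjusted p under 0.05, at -0.36 ± 0.11, adjusted p = 0.093, and DESeq2 and limma called 0. Without untreated KO replicate 1 there was 1 call. The median was -0.03. The absence of calls does not show that no gene changed. Cdc6 read 10.7, 5.57 and 1.61 CPM in untreated KO replicates 1 to 3 and 8.80, 5.36 and 1.53 CPM after 0.1 ng/ml, and Kif23 42.5, 29.7 and 5.16 CPM and 45.0, 33.1 and 6.46 CPM. Each preparation kept its own level. The test of the difference between the genotypes' responses at this dose called 1 gene, Mcm3, less lowered in KO at 0.40 ± 0.13, adjusted p = 0.043 (5.75% of all genes) and 0 in the other direction (7.64%, and none of the 44 at an unadjusted p under 0.05). DESeq2 and limma also called 1 and 0. That single call was lost without any 1 of KO LPS 0.1 ng/ml replicates 1 to 3, untreated KO replicates 1 and 2, WT LPS 0.1 ng/ml replicates 1 and 2 and untreated WT replicates 1 and 3. Without untreated WT replicate 3 there were 2 calls, neither of them Mcm3. There were 12 calls without WT LPS 0.1 ng/ml replicate 3, and the share of all genes called in that fit is not given here. In that library the ribosomal RNA gene Rn45s took 3.62% of the counts. It took 8.21% in KO LPS 0.1 ng/ml replicate 2, without which the Mcm3 call was lost. The part of Rn45s in these counts was not tested.

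At 10 ng/ml the KO cells responded. The replicate-block test called 35 of 44 genes lower and 1 higher (34.2% and 31.8% of all genes), with a median of -0.76. All 35 fell in 3 of 3 preparations, and 31 of them also fell in WT cells. KO replicate 3 was low before stimulation, and 2 genes had all 3 stimulated libraries below all untreated ones (24.5% of all genes). Without the block 4 genes were called lower (21.6% of all genes). Leaving KO preparation 3 out of the blocked test gave 37 lower and 1 higher. Leaving it out without the block gave 11 lower. For neither fit is the share of all genes called given here, so these counts cannot be read as particular to these genes.

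Cdc6 again fell most in KO cells given 10 ng/ml, to 1.69, 1.16 and 0.271 CPM (-2.48 ± 0.23, adjusted p = 2.05e-08), although the third value rests on 4 reads. Ccne2 read 1.30, 1.26 and 0.745 CPM against 7.38, 4.58 and 2.44 CPM untreated, a change of -2.09 ± 0.24, adjusted p = 3.67e-07. Its 3 stimulated values were below all 3 untreated ones. Kif23 read 17.4, 12.8 and 1.63 CPM, a change of -1.30 ± 0.16, adjusted p = 5.79e-07, and Cenpf read 16.0, 10.3 and 0.678 CPM against 54.4, 25.1 and 3.77 CPM untreated, a change of -1.62 ± 0.23, adjusted p = 1.12e-05. Within each KO preparation the stimulated value was the lower one, but the groups overlapped. Mcm6, which was not called in WT cells, fell here from 177, 138 and 133 CPM to 119, 90.4 and 59.8 CPM, a change of -0.77 ± 0.09, adjusted p = 2.71e-07. Its groups were separate. Mki67 was the gene that rose, from 476, 196 and 32.8 CPM to 570.5, 268 and 128 CPM, at 0.95 ± 0.29, adjusted p = 0.00892. The rise was largest in replicate 3, the value without KO preparation 3 was 0.36 (adjusted p = 0.0412), and the call was lost without untreated KO replicate 3 alone (0.74, adjusted p = 0.0644), with total counts as the scale (0.46, adjusted p = 0.189) and in the KO libraries alone (0.96, adjusted p = 0.054).

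The response of KO cells to 10 ng/ml LPS differed from that of WT cells in 12 genes. Of these, 9 were less lowered in KO (11.3% of all genes), and 3 had a lower response in KO (10.4%). Kif23 showed the largest of the first kind, with a KO change minus WT change of 1.21 ± 0.23, adjusted p = 0.000851. Prc1, Aurka, Uhrf1, Ccna2, Kif20a, Cdc45, Bub1 and Cenpa differed by 0.52 to 0.72. The 3 others were Ccne1, Pcna and Mcm6. Ccne1 read 17.4, 10.1 and 4.05 CPM in untreated KO and 7.93, 5.90 and 2.1 CPM in stimulated KO libraries, a change of -0.95 ± 0.14 where WT cells had 0.45 ± 0.12, and the difference was -1.41 ± 0.18, adjusted p = 2.42e-05. Pcna read 320.4, 93.8 and 117 CPM and 330.5, 80.7 and 90.2 CPM in KO, with no call at -0.18 ± 0.09 where WT cells had 0.75 ± 0.09, and the difference was -0.93 ± 0.12, adjusted p = 2.74e-05. Mcm6 differed by -0.65 ± 0.12, adjusted p = 0.000877. Without the block none of the 12 was called, and 1 of the 44 had an unadjusted p under 0.05 (1.96% of all genes were called higher). The count of 9 fell to 3 to 5 when any of 7 single libraries was left out (KO LPS 10 ng/ml replicate 2, untreated KO replicates 1 and 2, WT LPS 10 ng/ml replicates 1 and 3, untreated WT replicates 1 and 3).

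KO cells given 10 rather than 0.1 ng/ml had lower values in 36 genes (32.7% of all genes) and a higher value in 1, Mki67 (30.1%). Cdc6 and Ccne2 led with -2.31 ± 0.23 and -2.21 ± 0.24. Without the block 3 genes were called lower (18.5% of all genes). The Mki67 value was 0.89 ± 0.29, adjusted p = 0.0147, and without KO preparation 3 no gene was called higher.

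Fibronectin was the stimulus with the most genes called different between the genotypes' responses (32, against 12 and 1 for LPS at 10 and 0.1 ng/ml). All genes ranked the same way, with 26.1% called higher and 23.2% lower for the difference with FN, 11.3% and 10.4% with 10 ng/ml and 5.75% and 7.64% with 0.1 ng/ml. In KO cells it lowered 12 of 44 genes (22.5% of all genes) and raised none (21.5%), with a median of -0.19. No gene rose at an unadjusted p under 0.05, and DESeq2 and limma called 0 higher. All 12 fell in 3 of 3 preparations, and 11 of the 12 had also fallen with 10 ng/ml LPS, from the same untreated libraries. Of the 12, 7 were licensing and helicase genes (Cdc6, Mcm2, Mcm3, Mcm4, Mcm6, Mcm7 and Gins2), and the others were Pcna, Rrm1, E2f1, Aurkb and Cenpa. Cdc6 read 7.80, 3.09 and 1.14 CPM, a change of -0.60 ± 0.18, adjusted p = 0.0111, and E2f1 read 36.3, 19.4 and 13.9 CPM against 48.5, 32.7 and 24.7 CPM untreated, a change of -0.66 ± 0.11, adjusted p = 0.000117. In each of the 3 preparations both values were below the untreated value. No gene had its 3 FN libraries below all 3 untreated libraries (15.6% of all genes did), and without the block 0 were called lower, 1 at an unadjusted p under 0.05 (7.17% of all genes called). Without KO preparation 3 the blocked test called 8 lower and 2 higher, with the share of all genes called in that fit not given here.

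Mitotic genes in KO cells given FN were looked at by role. Of the 8 mitotic kinase, checkpoint and ligase genes 1 was called lower and of the 10 spindle and kinetochore genes 1, against 22.5% of all genes. Counts this small cannot be set apart from that share. The group medians were -0.04 and -0.08. Kif23 read 45.9, 28.4 and 5.4 CPM, a value of 0.03 ± 0.14, and Plk1 read 39.3, 18.2 and 1.92 CPM, a value of -0.01 ± 0.14. Bub1b and Cdc20 were at -0.38 ± 0.21 and -0.19 ± 0.15. None of these 4 was called. The preparations did not all move one way. Prc1, which bundles the microtubules of the central spindle, read 61.2, 28.9 and 5.66 CPM untreated and 81.6, 39.8 and 4.44 CPM with FN, higher in replicates 1 and 2 and lower in replicate 3 (0.29 ± 0.14, not called). Kif11, the kinesin that separates the spindle poles, read 85.0, 43.0 and 7.88 and 85.8, 35.2 and 4.68 CPM, lower in replicates 2 and 3 (-0.26 ± 0.16, not called). Of 41 other mitotic genes that are not among the 44, 5 were called higher and 1 lower, against 21.5% and 22.5% of all genes.

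The difference in response to FN was called for 32 genes. Of these, 30 were less lowered in KO than in WT (26.1% of all genes) and 2 had a lower response in KO, Pcna and Mcm6 (23.2%), and the median difference was 0.80. With total counts as the scale, the median over all genes was 0.65 rather than 0.01, and 8123 genes were called higher and 1233 lower rather than 3468 and 3085. Cdc6 differed by 2.69 ± 0.31, adjusted p = 1.32e-06, Kif23 by 2.53 ± 0.21, adjusted p = 5.53e-08 and Cenpf by 2.29 ± 0.31, adjusted p = 1.7e-05. Ccne2, Bub1b, Ccna2 and Cdc20 differed by 1.91, 1.84, 1.49 and 1.48. By role, 9 of 10 spindle and kinetochore genes, 7 of 8 mitotic kinase and checkpoint genes and 6 of 11 licensing and helicase genes were less lowered, with medians of 1.09, 1.13 and 0.41. E2f1 fell in both genotypes, with -0.72 in WT and -0.66 in KO, and its difference of 0.05 ± 0.16 was not called. Pcna differed by -1.06 ± 0.12, adjusted p = 1.22e-06. Mcm6 differed by -0.41 ± 0.12, adjusted p = 0.00829, a value of 0.23 (adjusted p = 0.0934) with total counts as the scale. Without the block none of the 32 was called, with 3 of the 44 at an unadjusted p under 0.05 (11.8% of all genes were called higher). Without KO preparation 3, 31 were less lowered with the block and 8 without it. As the shares of all genes in those fits are not given here, the counts cannot be read as particular to these genes.

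**Figure D4:**
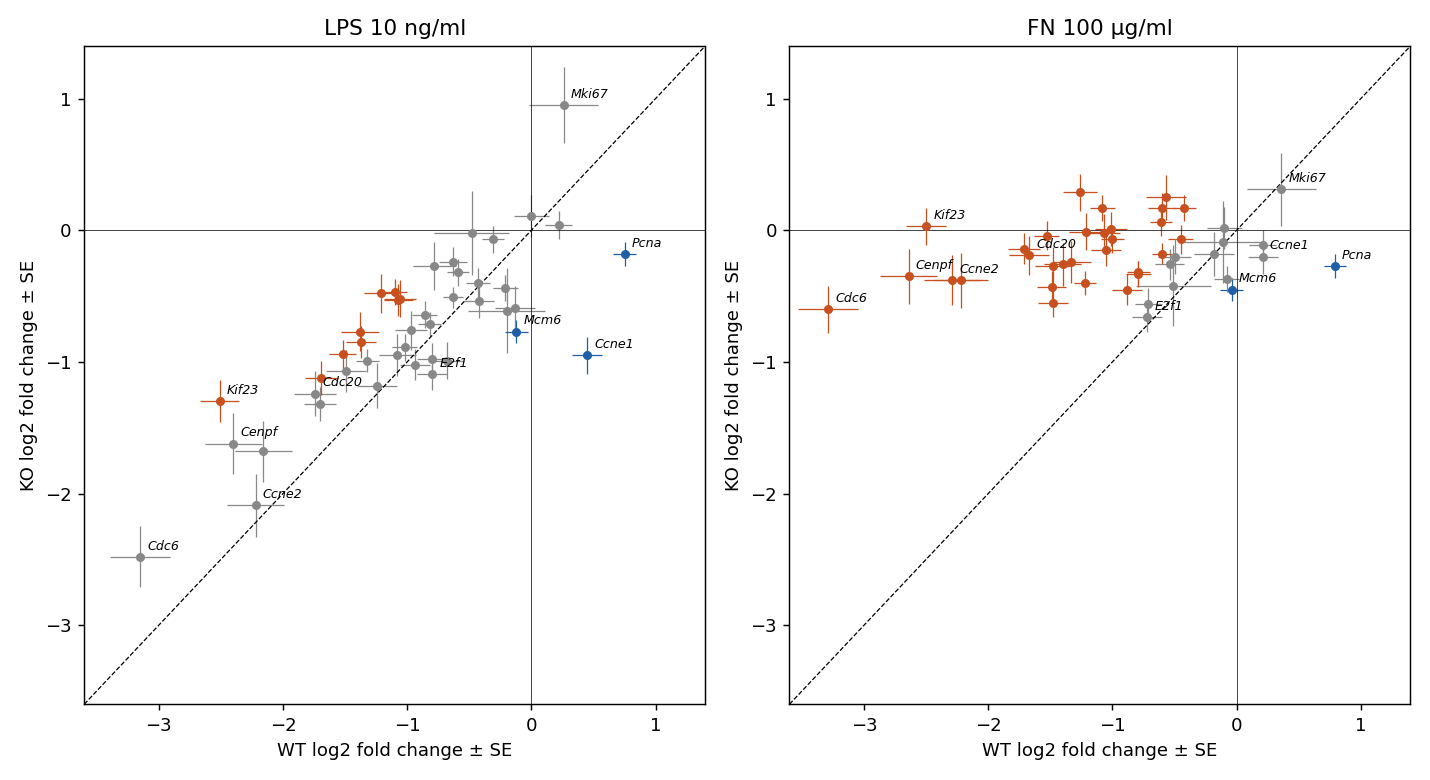
Log2 fold change ± SE of each of the 44 genes in KO (y axis) against WT cells (x axis) for LPS at 10 ng/ml (left) and FN (right), the dashed line marking equal responses; orange genes were called less lowered in KO, blue genes had a lower response in KO and grey genes were not called different. With FN 30 genes are orange, led by Cdc6 at -3.29 in WT and -0.60 in KO, and with LPS 9 are orange, led by Kif23.

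Within KO cells FN gave higher values than 10 ng/ml LPS for 34 of 44 genes (22.1% of all genes) and lower values for none (22.7%; Mki67 alone was under an unadjusted p of 0.05 in that direction, DESeq2 called 1 and limma 0). The median was 0.52. Cdc6 and Ccne2 led with 1.87 ± 0.24 and 1.70 ± 0.25. Without the block 1 gene was called higher (7.55% of all genes).

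Levels of the 2 genotypes were compared at each treatment without a block, since no preparation is shared between genotypes, and these tests had wide errors, with a median SE of 0.82 to 0.84. Untreated KO and WT cells differed in 0 of 44 genes (0% of all genes higher, 0.00752% lower), and at 0.1 ng/ml LPS also in 0 (2.97% higher, 6.33% lower). In both comparisons 0 of 44 had an unadjusted p under 0.05 and DESeq2 and limma called 0. At 10 ng/ml 2 genes were lower in KO (7.85% of all genes) and none higher (8.05%; 0 at an unadjusted p under 0.05 and 0 in DESeq2 and limma). Ccne1 differed by -2.02 ± 0.59, adjusted p = 0.0258 and Mcm6 by -0.75 ± 0.20, adjusted p = 0.0139. With FN, Cdc6 and Ccne2 were higher in KO (21.0% of all genes) at 2.32 ± 0.76, adjusted p = 0.0214 and 1.45 ± 0.51, adjusted p = 0.0321. Mcm6 was lower (17.6%) at -0.54 ± 0.20, adjusted p = 0.0401, but at 0.12 (adjusted p = 0.618) with total counts as the scale. All 5 calls were lost when only the 6 libraries compared were fitted. With a block on replicate number over both genotypes all 5 stayed called, although that fit matches preparations that the genotypes do not share. At 10 ng/ml the count of 2 fell to 1 without KO replicate 2 or WT replicate 1 or 3 and to 0 without KO replicate 3. With FN the count of 2 higher fell to 1 without replicate 2 of either genotype and to 0 without KO replicate 1 or WT replicate 1 or 3. Without KO preparation 3, 20 genes were higher in KO with FN. That preparation held the lowest KO level of 42 of the 44 genes at all 4 treatments, so leaving it out raises the KO mean. The share of all genes called in that fit is not given here, so the 20 cannot be read as particular to these genes.

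Other genes of the same pathways, in lists drawn up from general knowledge, also fell for the most part in WT cells given 10 ng/ml LPS, where 36.1% of all genes were called lower and 34.1% higher. Of 41 other mitotic genes 34 fell and 3 rose (median -1.36), of 25 polymerase, clamp loader and nucleotide genes 21 fell and 2 rose (-0.73), and of 13 replication checkpoint and recombination genes 11 fell and 1 rose (-1.35). Among 16 tested genes of the origin complex and its partners 12 fell and 1 rose (-1.11), and of 19 condensin, cohesin and chromatin genes 13 fell and 4 rose (-1.02). Of the origin genes, Gmnn, the inhibitor of Cdt1, changed by -2.26 ± 0.19, the origin complex subunit Orc5 by -2.16 ± 0.13 and Cdc7, the kinase that fires origins, by -2.00 ± 0.23. Of the polymerase group, Pole2, Rfc1 and Chaf1a changed by -2.13, -1.66 and -1.57. The checkpoint kinase gene Chek2 changed by -2.62, and Brca2 and Brca1, which repair and protect forks, by -2.59 and -2.51. Cdca2, Kif18a and Aspm, mitotic genes, changed by -3.12, -2.85 and -2.44. Esco2, which acetylates cohesin, the maintenance methyltransferase Dnmt1 and the condensin subunit Ncapd3 changed by -3.24, -1.67 and -1.67.

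Regulators upstream of these genes held both higher and lower members. Of 21 genes for RB, E2F, DREAM and other cell cycle transcription factors, 15 fell and 5 rose in WT cells given 10 ng/ml LPS, against 36.1% and 34.1% of all genes. E2f2, an activator E2F, read 22.9, 16.8 and 21.6 CPM before and 0.413, 1.42 and 0.551 CPM after, a change of -4.60 ± 0.31, adjusted p = 5.4e-10, and Mxd1, a MYC antagonist, rose by 2.92 ± 0.20. E2f7, a repressor E2F, changed by -2.69 ± 0.30. Of 8 CDK inhibitors 2 rose and 2 fell, and of 8 G1 cyclins and kinases 2 rose and 4 fell. The CDK inhibitor Cdkn1a rose from 294, 262 and 245 CPM to 5806, 3548 and 4474 CPM, a change of 4.08 ± 0.17, adjusted p = 3.86e-12. The inhibitors Cdkn1b and Cdkn2c fell, with changes of -1.27 ± 0.13 and -1.38 ± 0.14. Of the G1 genes, Ccnd2 (cyclin D2) went from 3.53, 7.71 and 3.40 CPM to 270.2, 205 and 244 CPM (5.64 ± 0.55, adjusted p = 4.05e-07) and Cdk6, its kinase, rose by 2.73 ± 0.15, while Cdk2 changed by -1.47 ± 0.08. The stimulated libraries of Ccnd2 and Cdkn1a were all above the untreated ones. Of 13 growth arrest genes 8 rose and 2 fell, against 34.1% and 36.1% of all genes, with Gadd45b at 6.30, Klf6 at 2.39 and Sesn1 at -5.29.

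Among these regulators, responses to FN differed between genotypes in both directions. Of the 21 transcription factor genes 14 had a higher response in KO and 4 a lower one, against 26.1% and 23.2% of all genes. The counts were 4 and 3 of 8 CDK inhibitors, 2 and 2 of 8 G1 genes and 2 and 5 of 13 growth arrest genes. Cdk2, Cdkn2c and Cdkn1b had higher responses in KO, by 1.21, 1.31 and 0.71. Ccnd2 read 269, 200.4 and 221 CPM in WT and 3.45, 4.6 and 1.68 CPM in KO libraries, and its response differed by -5.28 ± 0.92, adjusted p = 0.000298. Cdkn1a rose in both, by 4.14 in WT and 1.42 in KO, with a difference of -2.72 ± 0.21, adjusted p = 7.08e-08. E2f2 changed by -4.56 in WT and -1.02 in KO (3.54 ± 0.39, adjusted p = 1.35e-06 for the difference). Mxd1 rose in WT cells with FN (2.92) and was not called in KO with FN or with 10 ng/ml LPS (-0.53 and -0.05). Ccnd2, Cdkn1a and E2f2 did change in KO cells given 10 ng/ml LPS, by 4.13, 3.83 and -3.96. At that dose the genotypes' responses were called different for Mxd1 (-2.97) and Cdk2 (0.74). They were not for Ccnd2, Cdkn1a, E2f2, Cdkn2c and Cdkn1b. Of the 41 other mitotic genes, 30 had a higher response to FN in KO than in WT and 3 a lower one (median 1.37), against 26.1% and 23.2% of all genes.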

How the data were processed

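RNA of 24 libraries of primary mouse microglia was sequenced on a HiSeq2000 after TruSeq library preparation, per the labels' protocols. The submitters' processing notes name the build mm10 and the tools HTSeq 0.5.4, Bowtie2 2.1.0, DESeq (no version), SAMtools 0.1.19, CASAVA 1.8.2 and FastQC 0.10.0, while the annotation and the use of strand are not given in the sources used here. The table deposited by the authors holds raw read counts of 18919 genes, with total counts of 14939019 to 22143774 per library. Their deposited normalized signal covers 12889 genes, and a single divisor for each library recovers it from the counts with no gap above 0.0286.

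The counts were tested in R 4.3.3 with edgeR 4.0.16 (TMM, robust quasi-likelihood fit over all 24 libraries). The filter was filterByExpr with min.count at 10 and min.total.count at 15, and Benjamini-Hochberg adjustment ran over 13294 genes within each of 17 contrasts. Contrasts within a genotype and differences between responses used a replicate block nested in genotype (12 residual degrees of freedom). Contrasts between genotypes used the 8 groups without a block (16 residual degrees of freedom, which is too many, since libraries of a preparation deviate together). The SE is the absolute log2 fold change over the square root of F. The pairing rests on the data. Over 9296 genes, the deviations of same-numbered libraries of a genotype from their group means correlated at 0.584 to 0.956 and those of other libraries at -0.741 to 0.297, and 24 of 24 libraries correlated best with one of their own number. Promoter windows came from RefSeq (GRCm38.p6) and gene overlaps from GENCODE M21.

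All 44 genes were tested. Given by library were the 2 genes of each role with the largest absolute change in WT cells with LPS at 10 ng/ml, with Mki67 and Top2a. Ccne1, Pcna, Mcm6, Plk1, Prc1 and Kif11 were added after their values were seen. Of each related list, up to 3 called genes with the largest absolute change in that comparison were named. The genes, lists and tests were chosen with earlier results of these data known. Alternatives were other scalings and filters, DESeq2 1.42.0, limma 3.58.1 on log2 of the deposited signal plus 1, no block, and leaving out libraries. The fits were tested on simulated data.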

Additional observations from a re-analysis of the deposited data

Results flagged for a closer look

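The responses of KO and WT cells to the same stimulus were tested against each other within the replicate-block fit, and each value below is the log2 change in KO minus that in WT. With FN, Ccna2 differed by 1.49, Ccne2 by 1.91, Uhrf1 by 1.21, Cdc6 by 2.69 and Mcm3 by 0.82. Rrm1 differed by 0.47, Rrm2 by 1.10, Bub1b by 1.84 and Cdc20 by 1.48, and Kif23 by 2.53, Cenpf by 2.29 and Top2a by 0.77. Mcm6 and Pcna differed in the other direction with FN, by -0.41 and -1.06. With LPS at 10 ng/ml, Ccna2 differed by 0.58, Uhrf1 by 0.60 and Kif23 by 1.21, while Ccne1 differed by -1.41, Mcm6 by -0.65 and Pcna by -0.93. With LPS at 0.1 ng/ml, Mcm3 differed by 0.40. This list is a selection. It holds every called gene with a lower response in KO. Of those less lowered, it holds only the 2 genes of each role picked for values by library, Mki67 and Top2a, where called. In all, 30 genes were called less lowered and 2 lower with FN (26.1% and 23.2% of all genes). The counts were 9 and 3 with 10 ng/ml (11.3% and 10.4%) and 1 and 0 with 0.1 ng/ml (5.75% and 7.64%). Groups of 3 libraries are too small for the check for single outlying libraries, so none was made.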

How the results depend on the processing

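Without the replicate block, the count of genes called lower was 0 for WT with 0.1 ng/ml LPS (17 with the block), 6 for WT with 10 ng/ml (34), 5 for WT with FN (34), 4 for KO with 10 ng/ml (35) and 0 for KO with FN (12). Of all genes, 5.66%, 26.1%, 26.5%, 21.6% and 7.17% were called lower without the block, in the same order. The count of lower genes was 2 for WT and 3 for KO between the doses (33 and 36), with 17.4% and 18.5% of all genes. In KO with FN against 10 ng/ml LPS 1 gene was called higher (34), with 7.55% of all genes. The genes less lowered in KO numbered 0, 0 and 0 for 0.1 ng/ml, 10 ng/ml and FN (1, 9 and 30). Among all 13294 genes, 25 were then called higher for 0.1 ng/ml, 1.96% for 10 ng/ml and 11.8% for FN. A fit without the block and without KO preparation 3, chosen after seeing the data, gave 0, 11 and 0 lower for WT with 0.1 ng/ml, KO with 10 ng/ml and KO with FN, 16 and 9 lower between doses in WT and KO, 5 higher in KO with FN against LPS, and 0, 0 and 8 less lowered in KO. The shares of all genes called in that fit are not given here, so its counts cannot be set against a general rate. Of the single called values that come from the blocked fit, 21 stayed called and 266 did not without the block. Of all 292 called values, 286 stayed called with RLE scaling, 281 in DESeq2, 284 in limma, and 291 with no filter and with a filter of 5 CPM in 3 libraries.

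With library totals as the only scale, 37 genes were lower in WT with 0.1 ng/ml. Those less lowered in KO numbered 4 with 0.1 ng/ml and 21 with 10 ng/ml. Of all 13294 genes, 1428 then had a higher response in KO with 0.1 ng/ml (764 with TMM) and 4398 with 10 ng/ml (1507). Lower responses numbered 748 (1015) and 821 (1380), so the 4 and 21 cannot be read as particular to these genes. Between genotypes, 1 was lower (10 ng/ml) and 7 were higher (FN). The shares of all genes called between genotypes on this scale are not given here. The summed level over untreated was then 0.737 (0.869 with TMM) for WT with 0.1 ng/ml, 0.423 (0.733) for WT with 10 ng/ml, 0.435 (0.750) for WT with FN and 0.530 (0.745) for KO with 10 ng/ml. Values that reversed were Ccne1 at -0.34 and Pcna at -0.04 in WT with 10 ng/ml, Pcna at 0.00 in WT with FN, and Mcm6 at 0.23 for the difference in response to FN and 0.12 for KO against WT with FN. On this scale the median of all genes was -0.25, -0.81 and -0.79 in WT with 0.1 ng/ml, 10 ng/ml and FN and -0.08, -0.51 and -0.17 in KO, where TMM gave -0.02 to 0. All genes split into 1905 higher and 9129 lower for WT with FN (4653 and 4920 with TMM), 1589 and 5393 for WT with 0.1 ng/ml (2814 and 2706), 2101 and 7900 for KO with 10 ng/ml (4231 and 4545) and 1837 and 4203 for KO with FN (2860 and 2991).

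The single gene less lowered in KO with 0.1 ng/ml became 3 with the 5 CPM filter, 0 without KO preparation 3 and 5 without the 3 libraries rich in Rn45s. Between genotypes, the 2 genes lower with 10 ng/ml became 0 in the 6 libraries alone and 1 without the Rn45s-rich libraries, and the 2 higher with FN became 0 in limma, 0 in the 6 libraries alone and 20 without KO preparation 3. KO preparation 3 held the lowest KO level of 42 of the 44 genes, and leaving it out raises their KO mean. The cause of these shifts was not tested. For these fits, and for those with 1 library left out, the shares of all genes called are not given here. Their counts thus cannot be set against a general rate. With 1 library left out, the counts ran from 6 to 22 lower for WT with 0.1 ng/ml, 0 to 1 lower for KO with 0.1 ng/ml, 0 to 12 and 3 to 9 less lowered in KO with 0.1 and 10 ng/ml, and 0 to 2 lower (10 ng/ml) and 0 to 3 higher (FN) between genotypes. Depth limits Cdc6, which had 10 to 11 reads in WT with 10 ng/ml, 7 to 16 in WT with FN and 4 to 30 in KO preparation 3. It also limits Ccnb1 and Cdc20, with 6 to 15 and 9 to 33 reads in KO preparation 3. The other 41 genes had at least 10 reads in every library. Among them, Ccne2 had 13 to 26 reads in WT with 10 ng/ml and 11 to 47 in KO preparation 3.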
